A study of Mus musculus with 78 samples.

Results

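TRIM28 was degraded for 24 h in an mESC line that also carries inducible hairpins against endogenous retroviruses (ERVs), and the RNA of these cells was compared with that of the same line in DMSO. The 2 groups hold 3 libraries each, 6 of the 78 samples of the series, and every gene of their tables entered the comparison. The line, called shERV here, is a V6.5 mouse embryonic stem cell line in which TRIM28 carries an FKBP tag with mRuby2 at its N terminus, derived from a single picked colony, with doxycycline (Dox)-inducible short hairpin RNAs against IAP, MMERVK10C, MMERVK9C and MMETn elements. dTAG-13, given at 500 nM, is a small molecule that brings a tagged protein to an E3 ligase, so that the protein is destroyed within the cell. DMSO, its solvent, was given to the control group. Per the labels, both groups received 2 µg/mL Dox for the 24 h before treatment, whereas the study describes hairpin induction only for another group of this line. Whether the hairpins were on in the 2 groups compared cannot be told from these sources. Per the labels, cells were kept on irradiated CD1 fibroblast feeders in serum and LIF, and libraries were made from total RNA after removal of ribosomal RNA. A second experiment served for comparison, with 3 libraries in DMSO and 3 after 24 h of 500 nM dTAG-13 from tagged V6.5 mESCs freed of feeders, made from polyA RNA, and is called the time course.

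TRIM28, also known as KAP1, is a scaffold that KRAB zinc finger proteins bring to DNA. It recruits SETDB1, which deposits H3K9me3, and HP1 proteins, and this keeps ERVs and the methylated copy of imprinted control regions silent in embryonic stem cells. Super-enhancers (SEs) are dense clusters of enhancers that drive the genes of stem cell identity, among them the pluripotency factors and the miR-290 to miR-295 cluster. A small share of mESCs passes at any time through a state that resembles the embryo at the 2-cell stage, marked by Zscan4 and by genes read from ERV promoters.

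The 6 libraries of the 2 groups were alike in depth, and none held the values of another. Relative depth, taken from the mean read coverage of expressed genes, ran from 0.89 to 1.20 in the 6 libraries. Replicates had a Pearson's r of 0.991 to 0.993 across genes on the log2 scale. Nuclear protein-coding genes took 59.0% of all TPM in DMSO replicate 1 and 64.6% to 69.0% in the other 5 libraries. The most abundant gene, *Gm42418* in DMSO replicate 1 and *Gm26917* in the others, took 5.54% to 6.38%. The study calls the replicates of this RNA-seq biological, and no label says which cultures they came from, so the p-values measure the spread between these samples. *Trim28* itself stood at 252.3, 283.0 and 275.7 TPM in DMSO and at 213.2, 203.1 and 203.1 TPM after dTAG-13, a log2 change of -0.39 ± 0.047 (SE). As dTAG-13 acts on the protein, its mRNA does not show whether degradation took place. The time course was less even, with relative depths of 0.969 to 1.271 in DMSO and of 0.363, 1.315 and 1.538 after dTAG-13. Mitochondrial genes took 6.00% to 7.90% of its TPM in DMSO and 9.39% to 11.1% after dTAG-13. Without its shallow dTAG-13 replicate 1, 1609 genes differed in their change between the experiments, beside 1540 with all libraries.

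Markers of other cell types were checked, since the labels of the shERV samples describe feeders. The study's methods state for its RNA-seq in general that feeders were removed by attachment to gelatin before the experiments, so the labels and the methods differ on whether these samples held them. The summed level of 19 feeder fibroblast genes was 2248 to 2408 TPM in DMSO and 3051 to 3285 TPM after dTAG-13, and 818 to 835 TPM and 707 to 791 TPM in the time course. Of 17 tested, 9 were higher and 2 lower at an adjusted p below 0.05, beside 41.2% and 12.8% of all genes, so these counts lie near the background. *Tagln*, an actin-binding protein, took most of this, from 654.7, 711.4 and 710.2 TPM to 1446, 1333 and 1389 TPM (log2 change 1.00), and it dropped below 2-fold with centring, rescaling, FPKM and without DMSO replicate 1 or dTAG-13 replicate 1. Without it the sums were 1593 to 1697 TPM and 1718 to 1848 TPM. *Col1a1*, a collagen that mESCs hardly make, was at 70.0 to 74.4 TPM in DMSO and 67.7 to 74.5 TPM after dTAG-13, a log2 change of -0.04 (adjusted p = 0.53). The part of feeders in the results was not tested. ESC markers *Pou5f1*, *Sox2*, *Nanog*, *Zfp42* and *Esrrb* were all present in each library.

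After TRIM28 degradation in the shERV line most listed genes of naive pluripotency were lower, and most listed genes of the 2-cell stage were higher. *Alox15* and the imprinted *Mest* had the largest rises among genes with plain symbols. Values are TPM, which scale transcript reads to gene length and to a fixed total per library, and were compared on log2(TPM + 0.5), a scale that understates changes of low genes. A gene was called changed at an adjusted p below 0.05 (limma, Benjamini-Hochberg over all genes tested) and a change of more than 2-fold. Of 16166 genes tested, 617 changed (3.82%), of which 385 were higher (2.38%) and 232 lower (1.44%). The libraries of the 2 groups did not overlap in 609 of these 617 genes, beside 59.0% of all genes tested. The median log2 change of all genes was 0.14. With every library centred on its median, which shifts this by 0.16, the split became 246 higher and 353 lower, and after rescaling TPM within nuclear protein-coding genes it was 239 higher and 249 lower. All 617 kept their direction when centred, and so did those with a rescaled value.

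The 24 genes of the pluripotency list were all tested, and 16 of them were lower by more than 2-fold while none was higher. Their median log2 change was -1.30, beside 0.14 over all genes. At an adjusted p below 0.05 without the limit on fold, 23 of the 24 were lower, beside 12.8% of all genes, and the exception was *Lin28a*, an RNA-binding protein, at a log2 change of 0.09 (adjusted p = 0.14), which was -0.07 when centred. The summed level of the list was 3342 to 3796 TPM in DMSO and 1912 to 1948 TPM after dTAG-13. The count was also 16 without DMSO replicate 1. In bulk RNA, fewer cells that express a gene and less RNA per cell cannot be told apart.

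Among the core transcription factors, *Pou5f1*, which encodes OCT4, stood at 383.2, 434.2 and 435.8 TPM in DMSO and at 236.3, 235.3 and 228.8 TPM after dTAG-13. The log2 change was -0.84 ± 0.050 (SE), short of 2-fold (adjusted p = 1.55e-07). *Sox2*, its partner on DNA, went from 116.5, 125.2 and 128.6 TPM to 45.3, 45.4 and 47.7 TPM, a log2 change of -1.41 ± 0.052 (adjusted p = 6.38e-09). For both genes the groups stood apart, as in 59.0% of all genes tested, and the fall was deeper for *Sox2*. *Nanog*, the homeobox factor that stabilises naive pluripotency, was at 119.0, 130.3 and 131.1 TPM in DMSO and at 56.9, 60.7 and 63.6 TPM after dTAG-13, a log2 change of -1.06 ± 0.052 (adjusted p = 3.82e-08). *Klf4*, a zinc finger factor of the naive network, had 23.1, 23.9 and 25.5 TPM in DMSO and 5.99, 6.11 and 6.11 TPM after dTAG-13, a log2 change of -1.91 ± 0.054 (adjusted p = 8.40e-10). The 3 dTAG-13 libraries of *Klf4* lay within a few percent of each other.

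**Figure D1:**
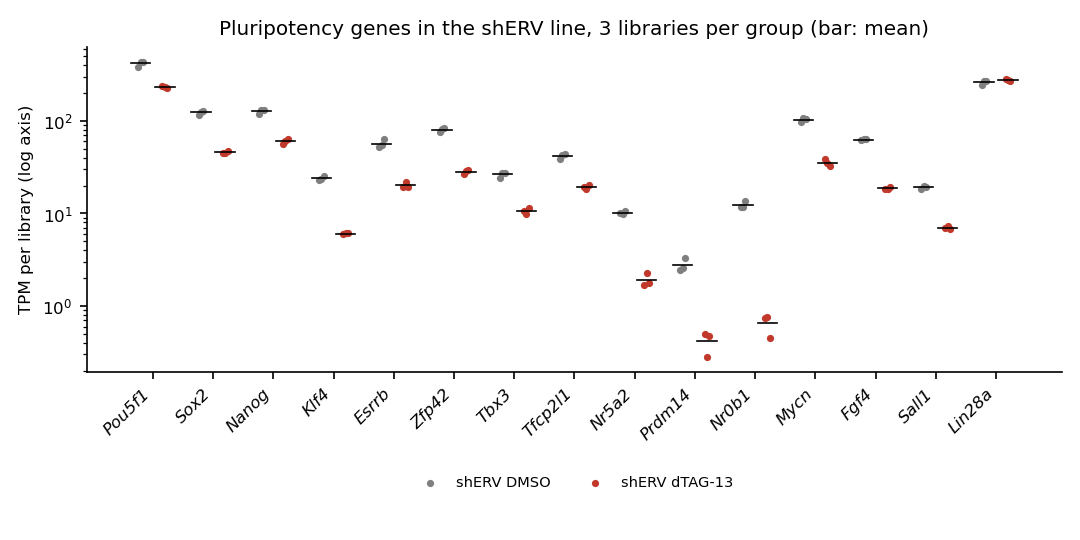
TPM per library (log axis) of 15 pluripotency genes in the shERV line, with grey points for DMSO, red points for 24 h of dTAG-13 and a bar for each mean of 3 libraries. In each gene but *Lin28a* the dTAG-13 points lie under the DMSO points, by the widest margin in *Nr0b1*.

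Orphan nuclear receptors were among the members with large falls. *Nr0b1* (DAX1; chrX:86191764-86195947, mm10) had 11.6, 11.9 and 13.7 TPM in DMSO and 0.748, 0.767 and 0.446 TPM after dTAG-13, a log2 change of -3.49 ± 0.11 (adjusted p = 2.34e-09). This was the largest fall in the pluripotency list. *Nr5a2*, which binds the *Pou5f1* promoter region, went from 10.2, 9.85 and 10.7 TPM to 1.70, 2.26 and 1.77 TPM, a log2 change of -2.16 ± 0.091. *Esrrb*, a receptor downstream of GSK3 inhibition and NANOG, went from 51.9, 55.2 and 63.1 TPM to 19.6, 22.1 and 19.5 TPM, a log2 change of -1.45 ± 0.078. All 3 receptors were thus lower with no overlap between groups, a separation found in 59.0% of all genes tested. *Prdm14*, a repressor of lineage genes, had a mean of 2.77 TPM in DMSO and 0.422 TPM after dTAG-13, and *Zfp42* (REX1), a common marker of the naive state, 80.5 and 28.4 TPM. *Mycn*, the MYC family member of stem cells, went from 103.2 to 35.5 TPM in the mean, and *Fgf4*, the growth factor driven by OCT4 and SOX2, from 62.8 to 18.7 TPM. *Sall1* had means of 19.3 and 7.03 TPM and *Foxd3* of 6.43 and 2.11 TPM, both encoding transcription factors of the stem cell state. The remaining called members were *Tbx3*, *Tfcp2l1*, *Tet2* and *Dppa5a*, with log2 changes from -1.32 to -1.08.

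Neighbouring lists moved less. Of 11 genes of the LIF and STAT3 pathway, 3 were lower, namely *Klf4*, *Tfcp2l1* and *Gbx2*, the last a homeobox target of STAT3 that fell from a mean of 13.9 to 2.78 TPM. The list's median was -0.04. At an adjusted p below 0.05 alone 3 members were higher and 4 lower, beside 41.2% and 12.8% of all genes. The receptor gene *Lifr* had a log2 change of -0.04 (adjusted p = 0.60), its co-receptor *Il6st* of 0.23 (adjusted p = 0.028) and the kinase gene *Jak1* of 0.40 (adjusted p = 9.09e-05). Of 15 FGF and ERK genes, *Fgf4* and the feedback inhibitor *Spry4* were lower and *Fos* higher. *Fos* no longer exceeded 2-fold once libraries were centred. Of 15 genes of DNA methylation, *Dnmt3l*, a cofactor of the de novo methyltransferases, went from 141.5 to 68.6 TPM in the mean, and the dioxygenases *Tet1* and *Tet2* from 72.3 to 35.0 TPM and from 30.2 to 11.8 TPM. Leaving out 1 library took *Dnmt3l* or *Tet1* just under 2-fold, to log2 changes of -0.997 without dTAG-13 replicate 3 and -0.986 without DMSO replicate 2. None of 12 formative and primed genes or of 16 genes of BMP, Id and Nodal signalling passed 2-fold.

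The microRNA genes of 2 clusters fell as a block. They were looked at after their values were seen, because 24 tested microRNA genes were lower (6.12% of those tested, beside 1.44% of all genes). miR-290 to miR-295, on chr7:3218626-3220841 (mm10), is the most abundant microRNA family of mESCs and speeds their cell cycle. The miR-106a to miR-363 cluster, on chrX:52741693-52742567, is a paralog of the miR-17 to miR-92 cluster. Mature sequences from RefSeq (GRCm38.p6) are shown because some members within each cluster share seeds. Seeds are the bases 2 to 8 that pair with targets, here in capitals.
miR-290a-3p: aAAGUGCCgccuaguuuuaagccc
miR-291a-3p: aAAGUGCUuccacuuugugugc
miR-291b-3p: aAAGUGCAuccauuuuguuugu
miR-293-3p: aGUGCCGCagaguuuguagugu
miR-294-3p: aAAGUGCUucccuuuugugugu
miR-295-3p: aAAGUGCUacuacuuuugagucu
miR-106a-5p: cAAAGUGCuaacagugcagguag
miR-20b-5p: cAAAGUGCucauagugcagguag
miR-18b-5p: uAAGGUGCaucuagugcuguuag
miR-19b-3p: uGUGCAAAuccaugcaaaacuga
miR-92a-3p: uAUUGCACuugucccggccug
miR-363-3p: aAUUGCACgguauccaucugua

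miR-291a, miR-294 and miR-295 have the seed AAGUGCU in common, and miR-106a and miR-20b the seed AAAGUGC, which is the same motif moved by 1 base. The values per gene are reads of total RNA over the hairpin and thus of the primary transcript, not of the mature microRNA. All 7 tested genes of the first cluster, of 9 in the files, were lower, with log2 changes from -1.80 to -1.08, of which *Mir291a* did not keep its call in most other settings. *Mir294* had 13.3, 14.1 and 11.0 TPM in DMSO and 3.51, 3.78 and 2.702 TPM after dTAG-13 (log2 change -1.80 ± 0.17, adjusted p = 4.48e-06). *Mir290a* had 13.6, 18.1 and 17.0 TPM and then 6.58, 6.41 and 7.13 TPM (log2 change -1.21 ± 0.096). *Mir291a* was the least even member, since its dTAG-13 replicate 2 reached 3.52 TPM while the DMSO libraries lay between 3.93 and 4.13 TPM (log2 change -1.08, adjusted p = 0.045). Its call was lost without any single DMSO library (adjusted p from 0.083 to 0.11), without dTAG-13 replicate 1 (log2 change -0.77, adjusted p = 0.16) or replicate 3 (-0.94, adjusted p = 0.13), and also when low genes were all kept, in FPKM or with a pseudocount of 1. The other 12 genes of both clusters kept theirs in each setting that tested them.

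All 6 genes of the X-linked cluster were lower as well, from -1.79 to -1.16. *Mir18b* went from 21.0, 22.3 and 20.5 TPM to 6.88, 5.499 and 6.44 TPM (log2 change -1.69 ± 0.11, adjusted p = 2.02e-07), and *Mir363* from 18.0, 17.6 and 20.6 TPM to 5.39, 5.95 and 7.88 TPM. In the time course the first cluster had a median log2 change of -1.52 and the second of -0.55. The difference between experiments passed an adjusted p of 0.05 in *Mir363* and *Mir20b* of the X-linked genes, by -1.33 (adjusted p = 0.000888) and -1.45 (adjusted p = 0.048), and in none of the 7 genes of the first cluster. In the time course *Mir20b* lay near the floor, at 1.18, 0.0 and 0.308 TPM in DMSO and 0.0, 0.531 and 0.655 TPM after dTAG-13. Hairpins of one cluster share a transcript, so their values are not independent.

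Genes of the 2-cell stage rose together. Of 26 listed genes found in the files 23 were tested, and 17 of them were higher by more than 2-fold and none lower, with a median log2 change of 1.26. Without a filter on low values all 26 were tested, with 17 higher and a median of 1.24. At an adjusted p below 0.05 alone, 22 were higher, beside 41.2% of all genes, and *Zfp750* was the one that was lower (log2 change -0.57). The count was 17 without DMSO replicate 1 and 16 with centred libraries.

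*Zscan4c*, a factor of telomere lengthening in mESCs (chr7:11005745-11010547), had 40.4, 46.1 and 44.6 TPM in DMSO and 103.7, 99.5 and 114.4 TPM after dTAG-13, a log2 change of 1.27 ± 0.062 (adjusted p = 3.81e-08). *Zscan4f* went from 56.9, 67.0 and 66.3 TPM to 165.0, 152.6 and 177.2 TPM, a log2 change of 1.37 ± 0.071 (adjusted p = 5.40e-08). The other 4 listed *Zscan4* genes had log2 changes from 1.25 to 1.61, and all 6 stood apart by group, beside 59.0% of all genes tested. *Duxf3*, a copy of the factor that opens the 2-cell programme, rose from 1.58, 2.03 and 2.34 TPM to 5.31, 5.58 and 5.33 TPM, a log2 change of 1.26 ± 0.11 (adjusted p = 3.39e-06). *Tcstv1* and *Tcstv3*, genes of telomere maintenance in 2-cell-like cells, went from means of 4.82 and 6.18 TPM to 11.7 and 13.8 TPM. *Tcstv3* was under 2-fold in centred libraries and in FPKM. *Tdpoz3*, a speckle-type POZ protein of the early embryo, rose furthest in this list, from 0.863, 1.69 and 1.74 TPM to 12.7, 10.3 and 11.1 TPM, a log2 change of 2.65 ± 0.18. Of 5 *Usp17l* deubiquitinase genes, 4 were higher, with a median of 1.23. *Arg2*, a mitochondrial arginase, went from a mean of 3.65 to 10.2 TPM and *Tmem92*, a membrane protein, from 8.29 to 22.0 TPM. *Zscan4*, *Usp17l*, *Tcstv*, *Tdpoz* and *Pramef* genes have near-identical copies, and the share of reads given to each copy is uncertain.

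**Figure D2:**
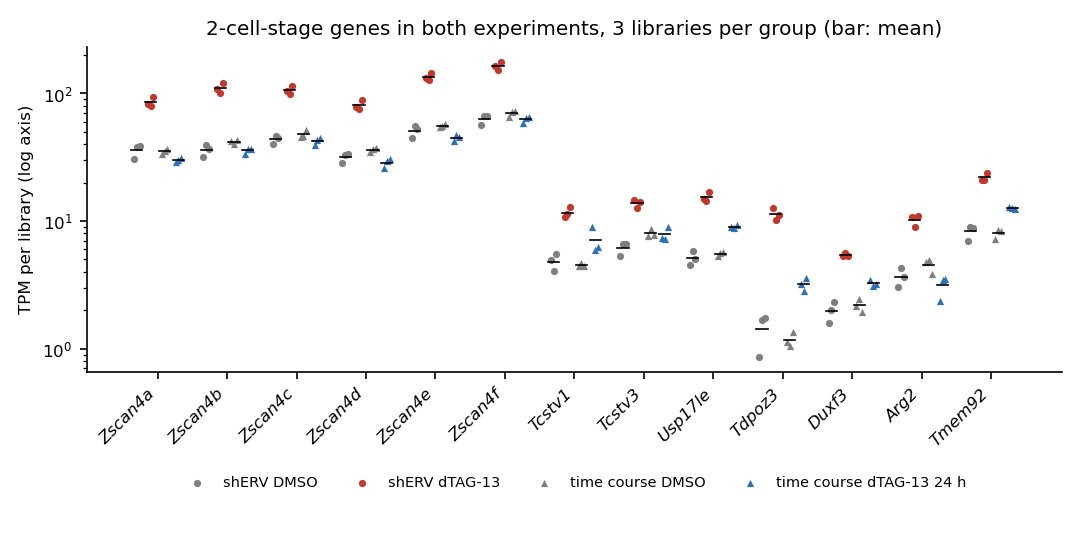
TPM per library (log axis) of 13 genes of the 2-cell stage, with circles for the shERV line and triangles for the time course, grey for DMSO and coloured for 24 h of dTAG-13, and bars for means of 3 libraries. Red circles stand above the 3 other groups in every gene, whereas blue triangles of *Zscan4* lie near or under their DMSO triangles.

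The rise of this list differed between the 2 experiments. In the time course its median log2 change was -0.03, and *Tdpoz3* was the one gene of 23 that was higher by more than 2-fold. The change was larger in the shERV line at an adjusted p below 0.05 in 20 of the 23, beside 26.2% of all 17653 genes in that fit, and by more than 2-fold in 13, beside 2.11%. *Zscan4c* had 45.9, 46.5 and 51.4 TPM in DMSO and 39.4, 43.4 and 45.0 TPM at 24 h of the time course, and its difference of log2 changes was 1.44 (adjusted p = 1.08e-06). In DMSO the summed level of the list was 282.3 to 340.0 TPM in the shERV line and 342.7 to 368.9 TPM in the time course, ranges that do not overlap. *Zscan4* genes carry most of this sum. After dTAG-13 the sums were 769.2 to 893.4 TPM and 310.1 to 336.9 TPM. Line, RNA selection, kit and culture differ together between the experiments and cannot be told apart.

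Among genes with plain symbols the largest rise was that of *Alox15* (chr11), a lipoxygenase that oxidises arachidonic acid. It stood at 1.46, 1.36 and 1.23 TPM in DMSO and at 48.7, 44.7 and 44.8 TPM after dTAG-13, a log2 change of 4.66 ± 0.088 (adjusted p = 4.38e-11). Of 4 tested lipoxygenase genes its neighbour *Alox12e* was also higher, from a mean of 0.142 to 2.06 TPM. *Cthrc1* (chr15), a secreted collagen-associated protein, rose from 8.33, 11.1 and 8.95 TPM to 130.2, 123.4 and 125.6 TPM, a log2 change of 3.68 ± 0.083 (adjusted p = 1.45e-10). Neither gene's groups overlapped, which the rule for naming the largest rises requires. The DMSO level of *Cthrc1* was the higher of the pair. *Cyp2b23*, a cytochrome P450, went from 0.955, 0.906 and 0.414 TPM to 18.6, 16.7 and 18.2 TPM, and *Nat8f2*, an acetyltransferase-like gene, from 0.605, 1.13 and 0.808 TPM to 17.5, 16.5 and 17.6 TPM. Both belong to multigene families, so that reads may be split among copies. *Mmp12*, a macrophage elastase, was at or near 0 TPM in DMSO and at 3.68, 2.92 and 3.71 TPM after dTAG-13.

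*Mest*, an imprinted gene of the alpha/beta hydrolase fold that is read from the paternal copy, had the next largest rise. It stood at 0.433, 0.523 and 0.455 TPM in DMSO and at 18.97, 18.27 and 17.54 TPM after dTAG-13, a log2 change of 4.27 ± 0.098 (adjusted p = 1.45e-10). In the time course the change was 2.77, and the difference between experiments of 1.50 passed the test (adjusted p = 4.71e-05). The window of 300 bases around a start of *Mest*, chr6:30737800-30738099 (GRCm38.p6, plus strand, RefSeq), lay inside an H3K9me3 peak in all 3 DMSO libraries of H3K9me3 ChIP-seq, at 4.92-fold to 6.32-fold over background. After 24 h of dTAG-13 no deposited peak overlapped it in any of 3 libraries, and the nearest lay 2564 bases away or farther. The table holds another *Mest* window upstream, chr6:30733256-30733555, which lay outside every deposited peak in all 3 DMSO libraries, 189 to 1372 bases from the nearest, and held no match to the motif below. These ChIP-seq libraries are from the tagged line without hairpins. The window is printed with capitals for TGCCGC or its complement GCGGCA, the motif of ZFP57, a KRAB zinc finger protein of imprinted regions.
Mest: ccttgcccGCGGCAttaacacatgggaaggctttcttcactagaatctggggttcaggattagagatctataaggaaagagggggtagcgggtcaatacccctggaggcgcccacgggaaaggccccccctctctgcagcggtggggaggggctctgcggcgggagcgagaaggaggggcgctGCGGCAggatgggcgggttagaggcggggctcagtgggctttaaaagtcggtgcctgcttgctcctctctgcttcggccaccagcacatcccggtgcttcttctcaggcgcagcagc

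The motif occurs 2 times in this window and in 11.6% of all 32851 promoter windows of the same table. Of the 178 higher genes with a promoter in the table, 23 held it (12.9%), beside 22.5% of the tested genes with a promoter there. A match in letters does not show binding.

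Other imprinted genes changed little. Of 37 tested, *Mest* and *H19* were higher and *Cobl* lower by more than 2-fold, beside 2.38% and 1.44% of all genes. Without the limit on fold, 18 were higher and 5 lower at an adjusted p below 0.05, beside 41.2% and 12.8% of all genes. The list's median was 0.22, beside 0.14 over all genes. *H19*, a maternally expressed noncoding RNA, went from 7.81, 7.24 and 7.97 TPM to 22.8, 21.5 and 22.9 TPM, a log2 change of 1.48 ± 0.099 (adjusted p = 3.22e-07). *Cobl*, an actin nucleator, fell from 18.2, 19.7 and 19.6 TPM to 4.01, 3.26 and 3.54 TPM, a log2 change of -2.26 ± 0.072. Below 2-fold, *Plagl1*, *Igf2r*, *Nnat*, *Sgce* and *Airn* were higher at log2 changes from 0.71 to 0.76, and *Phlda2* lower at -0.90. *Zfp57* itself went from a mean of 174.7 to 94.2 TPM (log2 change -0.89), the largest fall of the 17 tested genes of the TRIM28 pathway, none of which passed 2-fold, although *Zfp57* did with centred libraries (-1.05). None of 15 genes of other ERV silencers passed it either.

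The naming rule took the 20 largest rises and 10 largest falls among genes with plain symbols, and 169 higher and 43 lower genes with clone-type or pseudogene names are only counted here. The remaining rises named by it were *BC051019*, *CT033750.2*, *Ceacam19*, *Cyp21a1*, *Angptl6*, *Endou*, *Chst1*, *Sox17*, *Ramp2*, *Gcnt4*, *Proser2*, *Cd59a* and *Nefm*, with log2 changes from 1.84 to 2.84. *Sox17*, a factor of endoderm, reached 3.77, 3.36 and 4.62 TPM from 0.354, 0.795 and 0.583 TPM, the one rise of 2-fold among 18 tested endoderm genes. In that list *Lama1*, a laminin chain, was lower, from a mean of 5.94 to 2.53 TPM (log2 change -1.09), and *Gata6* and *Pdgfra* stood at -0.32 and 0.08. At an adjusted p below 0.05 alone 9 endoderm genes were higher and 6 lower, beside 41.2% and 12.8% of all genes. The list's median was 0.22, beside 0.14 over all genes. *Chst1*, a keratan sulfate sulfotransferase, went from 1.69, 1.86 and 2.15 TPM to 10.9, 10.2 and 9.49 TPM. *Ramp2*, a receptor activity-modifying protein, was uneven, with 7.70, 1.16 and 7.47 TPM after dTAG-13 and 0.383 to 0.905 TPM in DMSO (adjusted p = 0.00434).

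Among the falls outside the pluripotency list, *Tcl1*, a co-activator of AKT that mESCs express, went from 7.83, 7.59 and 8.50 TPM to 0.847, 0.922 and 0.875 TPM, a log2 change of -2.62 ± 0.081 (adjusted p = 1.99e-09). *Tcf15*, a basic helix-loop-helix factor of the exit from naive pluripotency, fell from 16.0, 18.1 and 19.2 TPM to 2.94, 2.09 and 3.14 TPM. *Aqp3*, an aquaglyceroporin, fell from 11.3, 11.8 and 12.5 TPM to 1.91, 1.82 and 1.40 TPM. In all 3 genes the groups did not overlap, which the naming rule requires. *Spink1*, a trypsin inhibitor, *Krt42*, a type I keratin, and *Mymx*, a fusion peptide of muscle, had log2 changes of -2.91, -2.57 and -2.24. *Yy2*, a zinc finger factor, had 0.820 TPM in DMSO replicate 2 and 3.97 and 4.41 TPM in the other DMSO libraries (log2 change -2.29, adjusted p = 0.000759). *mt-Rnr1*, a mitochondrial ribosomal RNA that the depletion kit removes, stood at 2064 TPM in DMSO replicate 1 and at 122.1 and 235.3 TPM in the others, and its call (adjusted p = 0.0071) was lost without the filter on low values (adjusted p = 0.062). *Hormad1* and *Tex19.1*, genes of meiosis and the germline, were lower too, from means of 8.87 and 31.8 TPM to 2.73 and 11.1 TPM.

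Position relative to SEs and ERVs was described with lists of elements in mm10 that the study provides. The study drew its SEs from mESC chromatin, and 18 of the 24 pluripotency genes are the active gene nearest to one, so the lists are not independent. Of 214 genes nearest to an SE, 35 were lower (16.4%) and 2 higher, with a median log2 change of -0.11. At an adjusted p below 0.05 without the limit on fold, 100 were lower, 52 higher and 62 did not pass, beside 12.8% of all genes lower and 41.2% higher. The share of lower genes was 23.3% with a start within 10 kb of an SE (40 of 172), 13.9% within 50 kb (62 of 447) and 1.08% beyond 100 kb (166 of 15441). The 40 include the 7 and 6 hairpin genes of the 2 microRNA clusters, which share a transcript within a cluster and are not independent. *Sox2*, *Nanog*, *Mycn*, *Dppa5a*, *Spry4* and *Cobl* had their start inside an SE, and *Klf4* and *Nr5a2* were among the SE genes with the deepest falls.

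Distances to full-length MMERVK and MMETn elements, families that the hairpins address beside IAP, were read in the same way. Within 50 kb of an MMERVK element 43 of 406 genes were higher (10.6%), and within 50 kb of an MMETn element 27 of 189 (14.3%), against 2.09% and 2.13% beyond 100 kb. Lower genes numbered 2 and 1 at the same distance of 50 kb. The start of *Cthrc1* lay 2.86 kb from an MMETn element and that of *Cd59a*, an inhibitor of complement, 4.50 kb from one. *Cyp2b23* had one at 19.5 kb and *Cyp21a1*, a steroid hydroxylase, an MMERVK element at 10.6 kb. The 6 listed *Zscan4* genes, *Zscan4a* to *Zscan4f*, had the nearest element of either family at 18.4 to 29.0 kb, and as a gene cluster they are not independent. Together, 65 of the 385 higher genes (16.9%) had an MMERVK or MMETn element within 50 kb. IAP elements were not analysed here, and RNA of the ERVs themselves is not part of these gene tables.

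**Figure D3:**
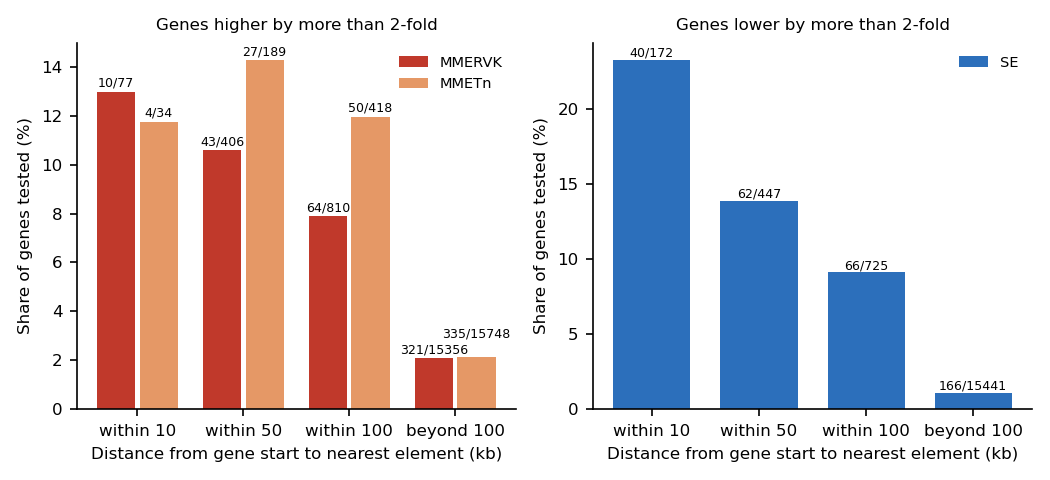
Share of tested genes (%) that were higher by more than 2-fold in the shERV line by distance of the gene start from the nearest full-length MMERVK or MMETn element (left), and share lower by distance from the nearest SE (right), with counts of genes over the bars. Beyond 100 kb the shares are 2.09%, 2.13% and 1.08%. Genes lower near an SE include the hairpins of the 2 microRNA clusters, which are not independent.

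H3K9me3 near the changed genes was read from the ChIP-seq of the tagged line, over the 10000 peaks with the highest fold enrichment in each library. In the 3 DMSO libraries 35.7% ± 2.60 (SD, n = 3) of higher genes had such a peak within 20 kb of their start, beside 10.4% ± 0.725 of all tested genes and 6.61% ± 1.08 of lower genes. After 24 h of dTAG-13 the share was 17.5% ± 1.43 of higher genes and 3.75% ± 0.709 of all genes. The 10000 peaks covered 22.9 to 36.6 Mb in the DMSO libraries and 4.89 to 16.1 Mb after dTAG-13, and fewer genes of any kind lay near one. The 3 libraries of each treatment did not overlap for higher genes, with a two-sided exact permutation p of 0.10, the smallest that 3 against 3 allows. Of the 20 largest rises, 12 had a peak within 20 kb in all 3 DMSO libraries, beside 6.74% of all tested genes, and 10 of these 12 had none in any dTAG-13 library. *Alox15*, *Cthrc1*, *Mest*, *Angptl6*, *Endou* and *Nefm* were among them. Of all tested genes 1090 had such a peak in all 3 DMSO libraries, and 551 of these had none in any dTAG-13 library. None of the 10 largest falls had such a peak in all 3 DMSO libraries, and 4 of the 23 tested 2-cell genes did.

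The change in nascent RNA of the tagged line at 24 h, measured by TT-SLAM-seq in FPKM, was read with no test for those named genes that passed its filter on low values. *Cthrc1* went from 0.458, 0.405 and 0.534 to 6.16, 5.75 and 8.34 FPKM, and *Nr0b1* from 2.62, 2.43 and 1.68 to 0.296, 0.303 and 0.184 FPKM. *Sox2* went from 23.3, 21.9 and 16.4 to 9.42, 9.50 and 11.8 FPKM, and *Klf4* from 3.30, 3.16 and 1.63 to 0.952, 0.943 and 1.19 FPKM. In these 4 genes the nascent values lay in the direction seen in the shERV line, with no overlap between treatments, and this also held for *Mycn*, *Fgf4* and *Zfp42*. Of 23 pluripotency genes with nascent values 10 were lower and 1 higher without overlap, beside 943 and 4865 of all 10425 genes. Several other pluripotency genes that were lower in the shERV line had nascent values that overlapped between treatments. Mean nascent FPKM in DMSO and at 24 h was 4.92 and 4.44 for *Pou5f1*, 1.22 and 1.05 for *Esrrb*, 1.15 and 1.10 for *Tet2*, and 3.23 and 3.16 for *Dppa5a*. *Tet1* had means of 3.39 and 3.32 FPKM and *Nr5a2* of 0.373 and 0.471 FPKM, both also with overlap. *Nanog* was higher there, at 3.07, 3.07 and 2.49 FPKM in DMSO and 3.68, 3.50 and 6.03 FPKM at 24 h.

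The change of a gene in the shERV line was set against that in the time course in a single fit of 12 libraries and 17653 genes. In the time course 1821 genes were higher (10.3%) and 352 lower (1.99%). Of the shERV line's higher genes in this fit 44.7% were also higher there, which is 9.88% of the time course's, and of its lower genes 37.2%, which is 24.7% of the time course's. No gene was higher in the shERV line and lower in the time course, and 5 were the reverse. Over all genes, which are not independent replicates, Pearson's r between the 2 log2 changes was 0.412 and Spearman's rho was 0.390. The changes themselves differed past both limits in 373 genes that were more positive in the shERV line and 1167 that were more negative. This split was 560 and 895 with centred libraries, and 177 and 1201 after rescaling.

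**Figure D4:**
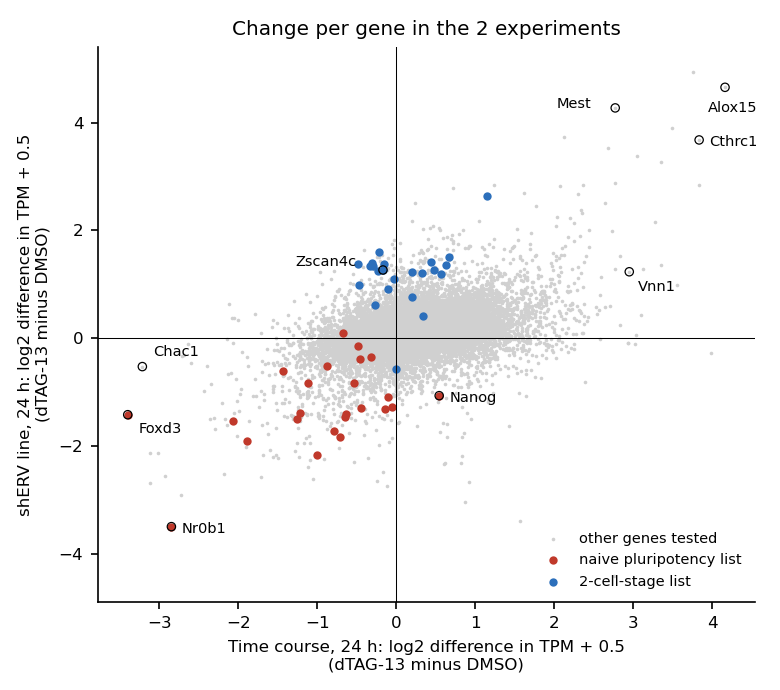
Log2 change in TPM + 0.5 after 24 h of dTAG-13 per gene, in the time course (x axis) and in the shERV line (y axis), with pluripotency genes in red, genes of the 2-cell stage in blue and named genes circled. Blue points sit above 0 on the y axis and around 0 on the x axis, apart from *Zfp750* below 0 and *Tdpoz3* at 1.15 on the x axis, and *Nanog* lies low on the y axis and right of 0 on the x axis.

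Pluripotency genes were lower in both experiments, with medians of -1.30 and -0.69, and 9 of 24 were lower by more than 2-fold in the time course. The change was more negative in the shERV line at an adjusted p below 0.05 in 13 genes and less negative in 7, beside 25.2% and 26.2% of all genes. *Nanog* stood out, with a change of -1.06 in the shERV line and 0.54 in the time course, where it went from 134.7, 141.7 and 132.5 TPM to 207.8, 198.1 and 190.7 TPM. The difference was -1.61 (adjusted p = 2.03e-07). *Tbx3* and *Tet2* differed in the same sense, by -1.21 and -1.18, and neither passed the test in the time course. *Foxd3* differed the other way by 1.99 (adjusted p = 2.13e-06), and its DMSO level was 6.21 to 6.65 TPM in the shERV line and 26.8 to 29.3 TPM in the time course. *Klf4* had the same change in both, -1.91 and -1.89, with a difference of -0.02 (adjusted p = 0.85).

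Genes of the amino-acid response showed a contrast of their own. None of 23 tested members changed by more than 2-fold in the shERV line, beside 3.82% of all genes, with a median of -0.03. In the time course 8 of 24 were lower, beside 1.99%, with a median of -0.89. At an adjusted p below 0.05 the change was more positive in the shERV line in 21 of the 24 and more negative in 2, beside 26.2% and 25.2% of all genes. Past 2-fold these counts were 8 and 1, beside 2.11% and 6.61%. *Chac1*, which degrades glutathione and is a target of ATF4, went from 17.7, 20.5 and 20.1 TPM to 13.3, 14.2 and 12.5 TPM in the shERV line, a log2 change of -0.52 ± 0.066 (adjusted p = 4.44e-05). In the time course it went from 27.9, 31.2 and 23.6 TPM to 2.01, 2.95 and 2.61 TPM, and the difference was 2.69 (adjusted p = 5.96e-07). *Lef1*, a transcription factor of WNT signalling, was similar, with 0.37 against -2.08. *Vnn1*, a pantetheinase, rose in both, by 1.23 from 6.12, 7.14 and 8.20 TPM to 16.5, 16.4 and 19.5 TPM in the shERV line and by 2.95 in the time course (difference -1.72, adjusted p = 8.25e-06). *Robo2*, a guidance receptor, had log2 changes of 0.64 and 1.23.

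**Figure D5:**
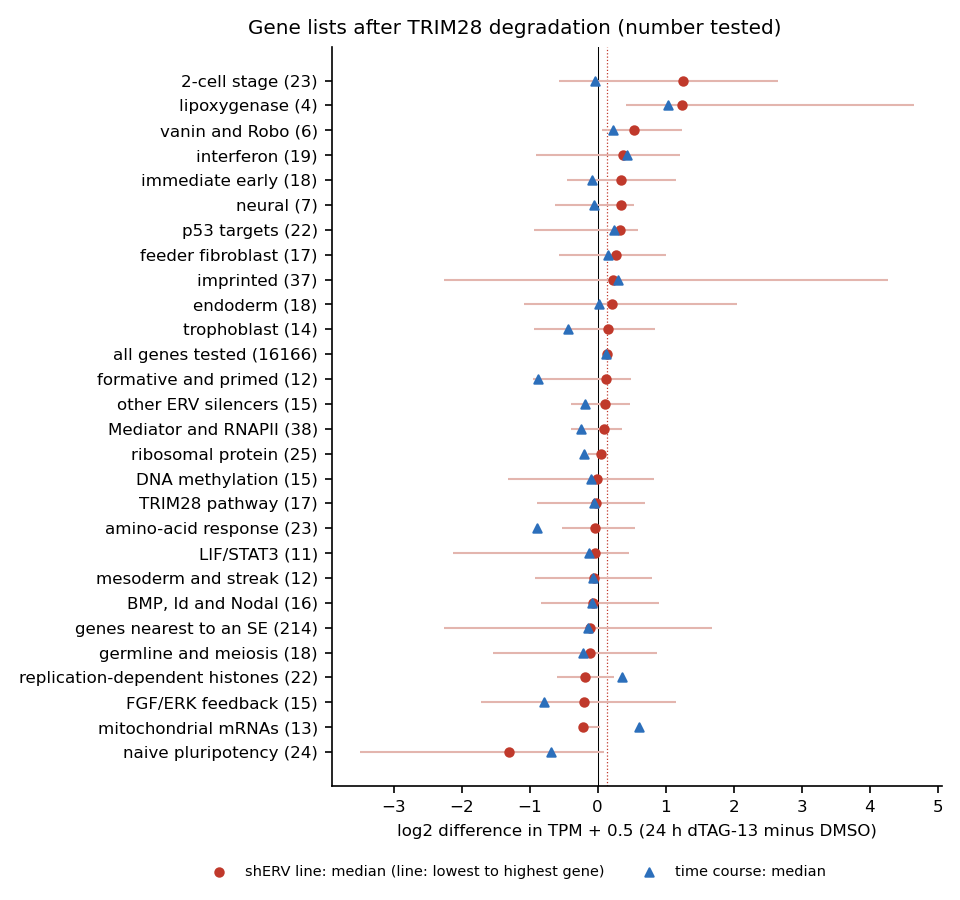
Median log2 change in TPM + 0.5 per gene list, with red circles for the shERV line, blue triangles for the time course, pink lines from the lowest to the highest gene in the shERV line and the number of genes tested in brackets. The dotted line is the shERV median of all genes (0.14), from which the 2-cell list departs upward and the naive pluripotency list downward.

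None of the 7 tested neural, 14 trophoblast or 12 mesoderm genes changed by more than 2-fold. Among 19 interferon-response genes *Cxcl10* was higher, from a mean of 3.88 to 9.61 TPM. No gene of 22 p53 targets, 25 ribosomal proteins or 38 subunits of Mediator and RNAPII passed 2-fold, as 3.82% of all genes did. At an adjusted p below 0.05 alone 17 p53 targets were higher and 2 lower, beside 41.2% and 12.8% of all genes. Their median log2 change was 0.33, beside 0.14 over all genes. Of the Mediator and RNAPII genes 11 were higher and 5 lower at that limit, and no ribosomal protein gene passed it.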

How the data were processed

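Per the submitters' processing notes, RNA-seq reads were trimmed with cutadapt 2.4, aligned to mm10 with STAR 2.7.5a and assembled per gene with StringTie 2.0.6. For each library the authors deposited TPM, the values used here, FPKM, used as an alternative, and mean coverage, a signal used only to compare depth, since these tables hold no read counts. Gene IDs listed more than once, 6 to 12 in a table, were summed. Of 54409 IDs shared with GENCODE vM21, 53499 had the same position. H3K9me3 peaks were deposited per library with their fold over background, a ratio. Nascent RNA (TT-SLAM-seq) was deposited by the authors as FPKM.

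A gene entered the comparison when 3 or more of the 9 shERV libraries reached 1 TPM. log2(TPM + 0.5) was analysed in limma 3.58.1 under R 4.3.3, using moderated variances with an intensity trend and Benjamini-Hochberg adjustment, with all 3 groups of the line in 1 model. The group kept on Dox served only for the estimate of spread. The time course entered as an interaction over 12 libraries. Alternatives were other pseudocounts, filters and scalings, FPKM, a replicate block and leaving out each library. Named genes were 13 set genes, the 20 largest rises and 10 largest falls without overlap between groups and with at least 3 TPM in the higher group, the 5 largest differences between experiments each way, leaving out clone-type and pseudogene symbols, and changed members of the lists. Named outside this rule, after their values were seen, were microRNA genes and list members under 2-fold. Members, lists and tests were chosen with earlier results of these data known. An active gene had a mean above 1 FPKM in DMSO of the time course. No result on IAP elements is given.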

Additional observations from a re-analysis of the deposited data

Results flagged for a closer look

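Flagged here are 13 genes whose change after TRIM28 degradation differed between both experiments. The limits were an adjusted p below 0.05 and more than 2-fold, in the interaction test over 17653 genes. Of all genes 2.11% and 6.61% passed both, more positive and more negative in the shERV line. Other named genes passed both as well, among them *Mest* and *Zscan4c*, and are not repeated here. Beside the set genes, which are *Nanog* at -1.61, *Chac1* at 2.69, *Vnn1* at -1.72 and *Foxd3* at 1.99, the flagged genes are the largest differences each way among genes with plain symbols, *Chac1* included.

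*Il24*, a cytokine of the IL-10 family, differed by 2.75 (adjusted p = 6.65e-06), with log2 changes of 0.63 in the shERV line and -2.12 in the time course. *Lef1* differed by 2.45 (adjusted p = 8.46e-09). *Glipr1*, which encodes a secreted CAP-domain protein, differed by 2.20 (adjusted p = 0.00113) and was higher in the shERV line, at 5.58, 3.403 and 3.37 TPM from 1.92, 1.63 and 0.878 TPM.

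*n-R5s88*, a 5S ribosomal RNA gene at or near 0 TPM in the shERV line, differed by 2.25, *Rn7s6*, a 7S RNA gene, by -4.25 and *mt-Rnr1* by -4.96. These RNAs are short, without polyA tail or removed by the kits, and RNA selection differs between the experiments. The microRNA genes *Mir1968* and *Mir6391* differed by -3.36 and -3.19. *Grin1*, an NMDA receptor subunit, differed by -3.13 and stood at 0.0991 to 0.281 TPM in the 6 libraries of the shERV line, and at 6.67 to 8.56 TPM after dTAG-13 in the time course.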

How the results depend on the processing

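Of 617 changed genes in the shERV line (385 higher, 232 lower), all kept their direction with centred libraries, 246 of the higher and 231 of the lower remained called, and the calls became 246 higher and 353 lower. With a mean of at least 5 TPM there were 263 (151 higher, 112 lower), as fewer genes were tested. Rescaling gave 239 higher and FPKM 226 higher. Without a limit on the fold 8729 passed (6667 higher, 2062 lower). Leaving out 1 library gave 601 to 654 changed genes, 354 to 416 higher and 222 to 248 lower. Differences from the time course numbered 1540, and 594 (186 higher, 408 lower) with a mean of at least 5 TPM, 560 higher when centred and 177 higher when rescaled. Leaving out 1 library gave 1502 to 1679, with 329 to 445 higher and 1111 to 1304 lower. With the replicate block, 387 were higher and 233 lower, and 386 and 1185 genes differed from the time course. Same-numbered libraries correlated at -0.11, -0.20 and 0.04 in their deviations, and differently numbered ones at -0.077 to 0.183. No effect shared by same-numbered libraries was thus visible, which cannot show whether the samples were handled in pairs. The difference for *Klf4*, near 0, changed sign with a pseudocount of 1 (0.0151) and centring (0.10), and ran from -0.0507 to 0.0195 over the fits without 1 library. Among named genes, *Glipr1*, *Usp17la*, *Tcstv3* and *Tagln* fell short of 2-fold in FPKM, *Fos*, *Tcstv3* and *Tagln* with centred libraries, and *Lama1* with a pseudocount of 1. Chosen after seeing the data, the counts of lower pluripotency genes and higher 2-cell genes were 16 and 17 without DMSO replicate 1, 18 and 16 centred, and 16 and 17 rescaled. Where no cause is given, the cause was not tested. Depth is known only relative between libraries, and 3 libraries per group limit precision.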

Other observations

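Pseudogenes took an uneven share of the calls in the shERV line. Of 1393 tested, 78 were higher (5.60%) and 10 lower (0.718%), beside 1.95% and 1.23% of protein-coding genes. Of 1180 long noncoding genes, 50 were higher (4.24%) and 32 lower (2.71%). Among 347 tested zinc finger genes with symbols of Zfp and a number, 7 were higher and 1 lower, with a median log2 change of 0.19 beside 0.14 over all genes. Pseudogenes share reads with their parent genes, and the effect of this was not tested.

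Replication-dependent histone genes, whose mRNAs end without a polyA tail, were slightly lower in the shERV line, with 12 of 22 lower and 1 higher at an adjusted p below 0.05, beside 12.8% and 41.2% of all genes, and a median of -0.18. In the time course the median was 0.35. The 13 mitochondrial mRNAs had medians of -0.22 and 0.61 in the same order, and 10 of the 13 were lower in the shERV line at that limit, beside the same 12.8%. RNA selection differs between these experiments. Keratins of simple epithelia rose by less than 2-fold, *Krt8* from a mean of 634.1 to 939.6 TPM and *Krt18* from 857.0 to 1318 TPM.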
